A study of Mus musculus with 8 samples.

Results

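The genes described here encode the Arp2/3 complex and the proteins of the WASP pathway that switch it on. The set holds 10 of the 56748 genes listed for the series: the subunit genes Actr2, Actr3, Arpc1b, Arpc2, Arpc3, Arpc4 and Arpc5, and the activator genes Was, Wipf1 and Wasf2. It was chosen by name around Wipf1, which was picked on its lower count in Olfr2 KO than in WT monocytes (adjusted p = 0.0341, edgeR quasi-likelihood test with Benjamini-Hochberg adjustment). The comparison of KO with WT therefore describes these genes and does not test them. All 10 passed the filter on low counts, among 11222 genes.

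Arp2/3 builds branched actin networks: it binds the side of an existing filament and nucleates a new filament from there. WASP, the product of Was, is the activator of blood cells and acts downstream of the GTPase Cdc42. WIP, the product of Wipf1, binds WASP and protects it from degradation. WAVE2, the product of Wasf2, works in a separate complex downstream of Rac and drives the flat leading edge of a moving cell. Monocytes and other white blood cells use both routes to crawl, to cross vessel walls and to engulf particles.

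The libraries hold RNA of Ly6Chigh monocytes, which in the mouse are the classical monocytes. They were sorted from spleen on day 7 after an aneurysm had been induced, from Olfr2 KO mice (4 libraries) and WT mice (4 libraries). Olfr2 encodes an olfactory receptor. Both genotypes had the aneurysm. The sources used here do not give strain, age, inducing agent, the extent of the deletion or whether each library is 1 animal, and a p-value thus reflects library-to-library spread, which may be technical.

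Olfr2 itself had 0 counts in all 8 libraries, KO and WT, so it does not check the genotype labels. Total counts lay between 17258427 and 21728794 in KO libraries and between 16111725 and 19048245 in WT libraries. All 10 classical monocyte markers on the list, among them Ly6c2, Ccr2 and Chil3, were above 3 counts in every library. By column number, replicates 1 and 2 of each genotype belong to a 1600 series and replicates 3 and 4 to a 1700 series. The labels leave the meaning of these numbers unexplained. Neutrophil markers were uneven within the KO group: their summed level was 2150, 3167, 766 and 573 CPM (counts scaled to the library total) in KO 1 to 4, against 602, 413, 257 and 493 CPM in WT 1 to 4. Mmp8 made up 49.3% of these sums. Without it they were 63.5 to 2410 CPM in KO and 33.8 to 63.1 CPM in WT, so the lowest KO sum lay just above the highest WT sum. S100a9, Ly6g and Mpo were each higher in every KO library, and the other markers on the list overlapped. Ly6g (0.142 to 1.04 CPM in KO, 0 to 0.124 CPM in WT) was near the limit of 3 counts per library. Mpo (0.284 to 4.94 CPM in KO, 0 to 0.218 CPM in WT) was near that limit in KO 3, KO 4 and the WT libraries. All 11 neutrophil markers had a count somewhere, and 4 were above 3 counts in every library. Mitosis markers (8 of 8 detected) summed to 64.5 to 357 CPM in KO and 17.9 to 95.9 CPM in WT libraries. Bulk counts cannot tell fewer cells of a type from less RNA per cell.

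The start regions of 4 members are shown because they represent the parts of the pathway that the counts set apart: Wipf1 and Wasf2, lower in every KO library, Was, the partner of Wipf1, whose libraries overlapped, and Actr3, an abundant subunit. Each window runs 5′ to 3′ on the gene's own strand from 250 bases before to 50 bases after the RefSeq start (build GRCm38.p6). Capitals mark a GC box (GGGCGG) or an ETS site (CCGGAAGT), on either strand.
Wipf1, chr2:73529438-73529737, minus strand: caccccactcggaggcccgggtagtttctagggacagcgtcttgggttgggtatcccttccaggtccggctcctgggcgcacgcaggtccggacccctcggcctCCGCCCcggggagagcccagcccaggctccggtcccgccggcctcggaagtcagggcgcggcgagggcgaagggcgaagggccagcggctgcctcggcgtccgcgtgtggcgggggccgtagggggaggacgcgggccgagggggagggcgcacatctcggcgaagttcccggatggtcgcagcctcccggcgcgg
Wasf2, chr4:133130383-133130682, plus strand: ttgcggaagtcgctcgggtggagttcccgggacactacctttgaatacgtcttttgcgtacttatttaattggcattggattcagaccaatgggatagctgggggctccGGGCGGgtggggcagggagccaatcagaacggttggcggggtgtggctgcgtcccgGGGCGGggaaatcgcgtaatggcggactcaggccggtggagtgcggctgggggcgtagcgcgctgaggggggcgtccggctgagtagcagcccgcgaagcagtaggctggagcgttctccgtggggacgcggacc
Was, chrX:8090442-8090741, minus strand: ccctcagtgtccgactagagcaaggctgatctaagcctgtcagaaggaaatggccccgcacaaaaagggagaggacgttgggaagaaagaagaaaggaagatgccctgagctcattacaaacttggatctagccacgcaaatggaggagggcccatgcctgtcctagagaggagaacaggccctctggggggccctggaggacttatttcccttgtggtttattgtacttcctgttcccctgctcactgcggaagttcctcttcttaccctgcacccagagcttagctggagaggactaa
Actr3, chr1:125435678-125435977, minus strand: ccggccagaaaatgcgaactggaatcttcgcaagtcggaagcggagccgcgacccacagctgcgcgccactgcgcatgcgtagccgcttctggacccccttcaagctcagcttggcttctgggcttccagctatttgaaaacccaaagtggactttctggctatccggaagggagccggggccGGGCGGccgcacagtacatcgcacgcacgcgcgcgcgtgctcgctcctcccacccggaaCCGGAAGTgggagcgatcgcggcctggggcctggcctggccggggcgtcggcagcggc

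The most upstream Wipf1 window was 75.3% G and C and held 37 CpG pairs and 1 GC box, while the Was window was 53.3% G and C with 5 CpG pairs and no match to any motif searched. Wasf2 held 2 GC boxes and Actr3 held 1 GC box and 1 ETS site. RefSeq lists further downstream Wipf1 starts, and gene counts cannot tell which start was used. RefSeq windows were found for all 10 members. In the first window of each, the GC box was present in 8 of 10 members, against 35.7% of all 32851 windows. Those windows are an unlike set: they include further starts of a gene, such as the downstream Wipf1 starts with 0 GC boxes. They were also not limited to tested genes, so nothing is read from these shares. An ETS site was present in 4 of 10 (Actr2, Actr3, Arpc3 and Arpc4), against 3.89% of all windows. The PU.1 site GAGGAAGT was present in 1 (Arpc1b; 3.2% of all windows), the CArG box in 1 (Arpc4; 1.63% of all windows) and TATAAA in 0 (13.6% of all windows). Both strands were searched, and no 2 different motifs overlapped in these windows. A match is a description of the letters and not evidence of binding.

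Of the activators, Wipf1 had the most negative log2 change. Wipf1 (ENSMUSG00000075284; GRCm38 chromosome 2, 73429610 to 73529734, minus strand) had 4.40, 4.15, 4.59 and 4.37 CPM in KO 1 to 4, against 15.4, 6.77, 16.7 and 13.8 CPM in WT 1 to 4. The KO libraries lay close together and all below the lowest WT library, WT 2, which itself lay far below the other WT libraries. The coefficient of variation of Wipf1 was 4.17% in KO and 33.6% in WT. The means were 4.38 ± 0.18 CPM in KO and 13.2 ± 4.43 CPM in WT (SD, n = 4 each), and the fitted log2 change was -1.52 ± 0.26 (SE), or 0.348 of the WT level. This is the value that chose the set. The reads behind it were few, 73 to 97 in KO libraries and 129 to 317 in WT libraries. The adjusted p passed 0.05 no longer (0.0863 to 0.142, edgeR) when WT 1, WT 3, WT 4, KO 2 or KO 3 was left out, each in turn, and was 0.00056 without WT 2. It was 0.0788 with limma-voom and 2.8e-05 with DESeq2.

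Wasf2 (chromosome 4, 133130505 to 133199756, plus strand) was the next lowest. It had 4.69, 4.66, 3.31 and 4.19 CPM in KO 1 to 4, against 7.51, 6.51, 7.63 and 9.06 CPM in WT 1 to 4. The groups did not overlap, and KO 3 was lowest. The log2 change was -0.79 ± 0.20 (SE) and did not pass the threshold of 0.05 over all genes, though it passed with DESeq2, with low counts left unfiltered and when WT 2 was left out (edgeR adjusted p = 0.0721 over all 8 libraries). With offsets for transcript length and GC content it was -0.42 ± 0.19.

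Was (chromosome X, 8081453 to 8090498, minus strand) differed little. It had 7.42, 6.93, 7.86 and 9.07 CPM in KO 1 to 4, against 8.66, 8.61, 7.74 and 10.3 CPM in WT 1 to 4. The groups overlapped, and KO 4 lay above 3 of the 4 WT libraries. The log2 change was -0.10 ± 0.17 (SE), and 0.02 ± 0.17 with the length and GC offsets. Per kilobase of exon, the ratio of Wipf1 to Was was 0.24, 0.242, 0.236 and 0.195 in KO 1 to 4, against 0.719, 0.318, 0.871 and 0.542 in WT 1 to 4. Per kilobase Wipf1 was thus scarcer than Was in all 8 libraries, and the KO ratios were all below the WT ratios. In CPM, which is not divided by length, WT 1, WT 3 and WT 4 held more Wipf1 (15.4, 16.7 and 13.8 CPM) than Was (8.66, 7.74 and 10.3 CPM).

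**Figure D1:**
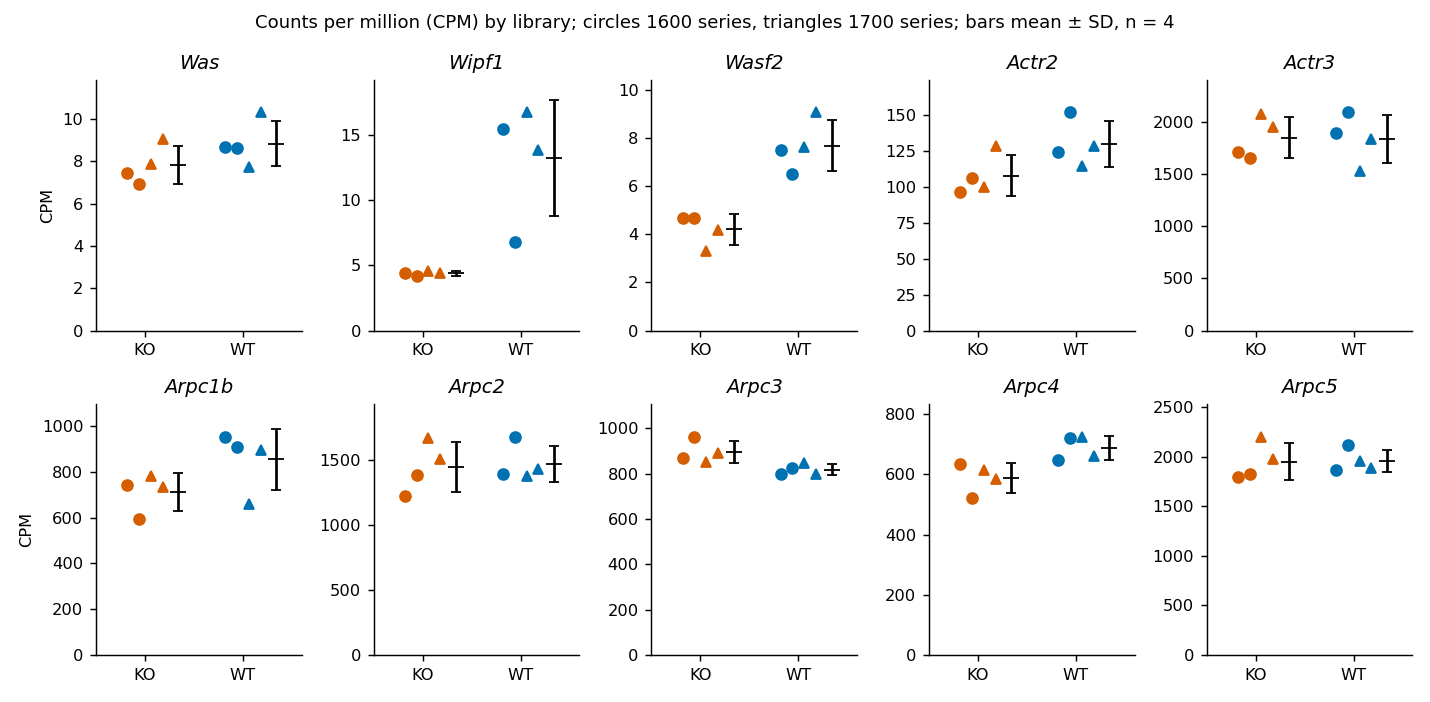
Level of each member in every library, in CPM on a linear axis from 0, KO left of WT; circles are the 1600 series and triangles the 1700 series, and the bar beside each group is the mean ± SD (n = 4). Wipf1 sits at 4.15 to 4.59 CPM in KO libraries and at 6.77 to 16.7 CPM in WT libraries, while the ranges of Was and of most subunits overlap between genotypes.

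None of the 7 subunit genes passed the threshold, beside 1.06% of all tested genes (edgeR). At an unadjusted p under 0.05 the count was 0 of 7, beside 20.9% of all tested genes (2344 of 11222). Together they summed to 7071, 7050, 8291 and 7783 CPM in KO 1 to 4, against 7676, 8494, 7211 and 7630 CPM in WT 1 to 4, and the groups overlapped. Their log2 changes lay between -0.19 and 0.21, with SEs of 0.11 to 0.13. The median was 0.05 for the subunits and -0.13 for all 10 members, beside -0.004 for all tested genes. Each of the 7 subunits changed by under 0.25 on the log2 scale in either direction, as did 51.2% of tested genes.

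Actr2 and Actr3 encode Arp2 and Arp3, the actin-like subunits that form the first step of the new filament. Actr3 (chromosome 1, 125392905 to 125435727, minus strand) had 1714, 1658, 2077 and 1956 CPM in KO 1 to 4, against 1891, 2092, 1532 and 1837 CPM in WT 1 to 4. All KO libraries lay inside the WT range (log2 change 0.09 ± 0.11, SE). A pseudogene row, Actr3-ps, held 2.75% to 3.02% as many counts as Actr3 in each library, and reads of such copies can be split between them.

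Actr2 (chromosome 11, 20062304 to 20112913, minus strand) had 96.8, 106, 99.9 and 129 CPM in KO 1 to 4, against 124, 152, 115 and 128 CPM in WT 1 to 4. KO 4 reached the WT range and the other KO libraries lay below it (log2 change -0.19 ± 0.12, SE). Arp2 and Arp3 are present once each in the complex, yet per kilobase of exon the Actr2 transcript stood at 4.28% to 5.85% of Actr3 in KO libraries and 5.84% to 6.65% in WT libraries. With the longest transcript as length the ratio was 3.4% to 4.64% in KO and 4.63% to 5.28% in WT.

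Arpc2 and Arpc4 encode the core pair that holds the complex together and contacts the mother filament. Arpc2 (chromosome 1, 74236084 to 74268209, plus strand) lay between 1218 and 1664 CPM in KO and between 1374 and 1675 CPM in WT (log2 change 0.05 ± 0.12, SE). Arpc4 (chromosome 6, 113378115 to 113390448, plus strand) had 633, 520, 614 and 585 CPM in KO 1 to 4, against 648, 721, 725 and 661 CPM in WT 1 to 4. Every KO library lay below every WT library on this scale, while the groups overlapped once library sizes were scaled by TMM (log2 change -0.16 ± 0.11, SE). Of the annotated Arpc4 exon bases, 12.2% are shared with Ttll3 on the same strand, so reads there can be split or lost.

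Arpc1b, Arpc3 and Arpc5 encode the remaining subunits, of which Arpc1b is the form typical of blood cells. Arpc1b (chromosome 5, 145114215 to 145130705, plus strand) lay between 594 and 780 CPM in KO and between 660 and 953 CPM in WT (log2 change -0.19 ± 0.12, SE). Opposite-strand exons of Pdap1 cover 18.2% of its exon bases, and the strand setting of the counting is not known here. Arpc3 (chromosome 5, 122391878 to 122414184, plus strand) had 869, 962, 853 and 893 CPM in KO 1 to 4, against 800, 825, 847 and 798 CPM in WT 1 to 4. Every KO library lay above every WT library in CPM, and the groups overlapped with TMM scaling (log2 change 0.21 ± 0.11, SE). Arpc5 (chromosome 1, 152766542 to 152775597, plus strand), the most abundant member in CPM, lay between 1796 and 2203 CPM in KO and between 1871 and 2120 CPM in WT (log2 change 0.07 ± 0.11, SE).

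In all, 1 of 10 members (Wipf1) passed an adjusted p of 0.05, beside 1.06% of all tested genes in either direction and 0.838% in the lower direction. Every KO library lay below every WT library in CPM for 3 of 10 members (Wipf1, Wasf2 and Arpc4), beside 8.66% of tested genes, and above it for 1 of 10 (Arpc3), beside 2.81%. With TMM scaling these counts were 2 and 0. The set was picked on this contrast, so nothing is read from these shares.

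**Figure D2:**
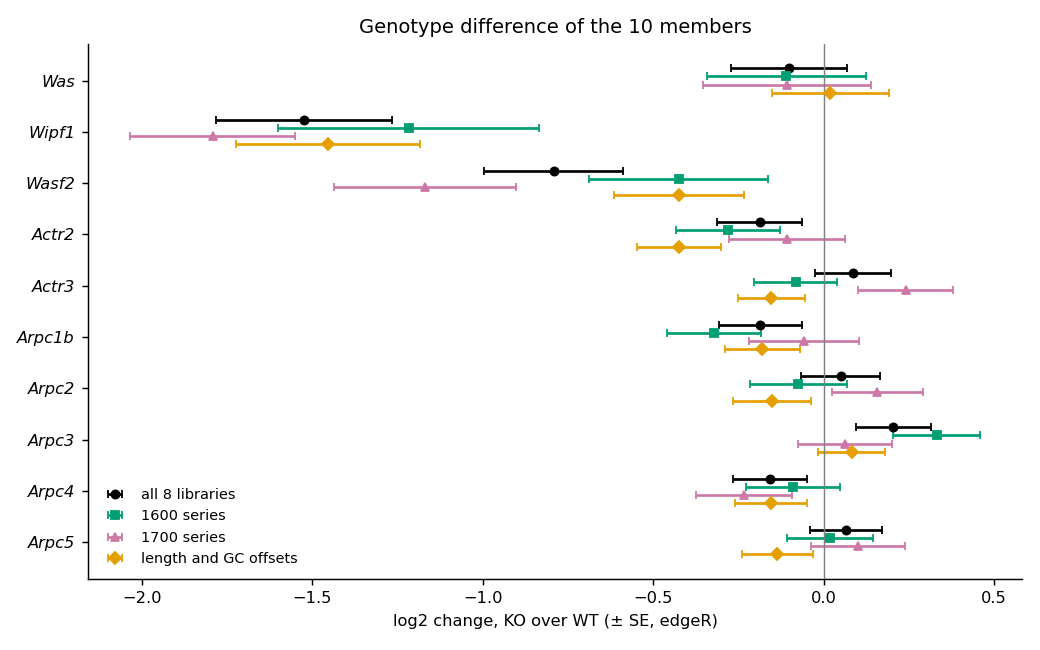
Log2 change of KO over WT for each member with its SE (edgeR), from all 8 libraries, from each number series alone and with offsets for transcript length and GC content. Wipf1 lies between -1.79 and -1.22 in these 4 fits, and the 7 subunits between -0.42 and 0.33, with Actr3, Arpc2 and Arpc5 on either side of 0, as is Was.

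The genotype difference was next compared between the number series. The interaction of genotype and series is a contrast that the choice of genes did not use. The differences within each series are parts of the contrast that picked Wipf1. Wipf1 differed by -1.22 ± 0.38 within the 1600 series and by -1.79 ± 0.24 within the 1700 series (log2, SE, 2 libraries against 2). Wasf2 differed by -0.42 ± 0.26 and by -1.17 ± 0.27. The interaction, 1700 minus 1600, was -0.59 ± 0.48 for Wipf1 (adjusted p = 0.593, edgeR) and -0.76 ± 0.37 for Wasf2 (adjusted p = 0.340, edgeR). It passed for 0 of 10 members, beside 0.784% of tested genes, and 0 members passed with DESeq2. At an unadjusted p under 0.05 the edgeR interaction held 0 members and 1806 of 11222 genes. Among subunits the interaction lay between -0.28 (Arpc3) and 0.31 (Actr3), with adjusted p-values of 0.434 to 0.902. With 2 libraries in each cell of this design, a difference of this size may not be detectable.

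Levels of different members were compared per kilobase of annotated exon. In KO libraries the order was Arpc5 (857 ± 81.9 CPM per kilobase), Arpc2 (710 ± 92.7), Actr3 (400 ± 42.9), Arpc3 (324 ± 17.5), Arpc4 (253 ± 21.3), Arpc1b (139 ± 16.03), Actr2 (20.7 ± 2.75), Was (3.28 ± 0.38), Wipf1 (0.74 ± 0.03) and Wasf2 (0.67 ± 0.10), as mean ± SD over 4 libraries. In WT libraries it was Arpc5 (860 ± 50.3), Arpc2 (721 ± 69.4), Actr3 (397 ± 49.95), Arpc4 (297 ± 17.1), Arpc3 (296 ± 8.53), Arpc1b (167 ± 25.9), Actr2 (24.9 ± 3.04), Was (3.71 ± 0.45), Wipf1 (2.24 ± 0.75) and Wasf2 (1.23 ± 0.17). Between neighbours, the library ranges overlapped for Arpc5 and Arpc2 and for Wipf1 and Wasf2 in both genotypes, and for Arpc4 and Arpc3 in WT. On this measure the activators thus lay far below every subunit. Recovery in these amplified libraries may differ with transcript length, which was not measured. Taking the longest transcript as length moved Arpc3 to 995 ± 53.8 CPM per kilobase in KO and 909 ± 26.2 in WT, above Actr3 in both genotypes.

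**Figure D3:**
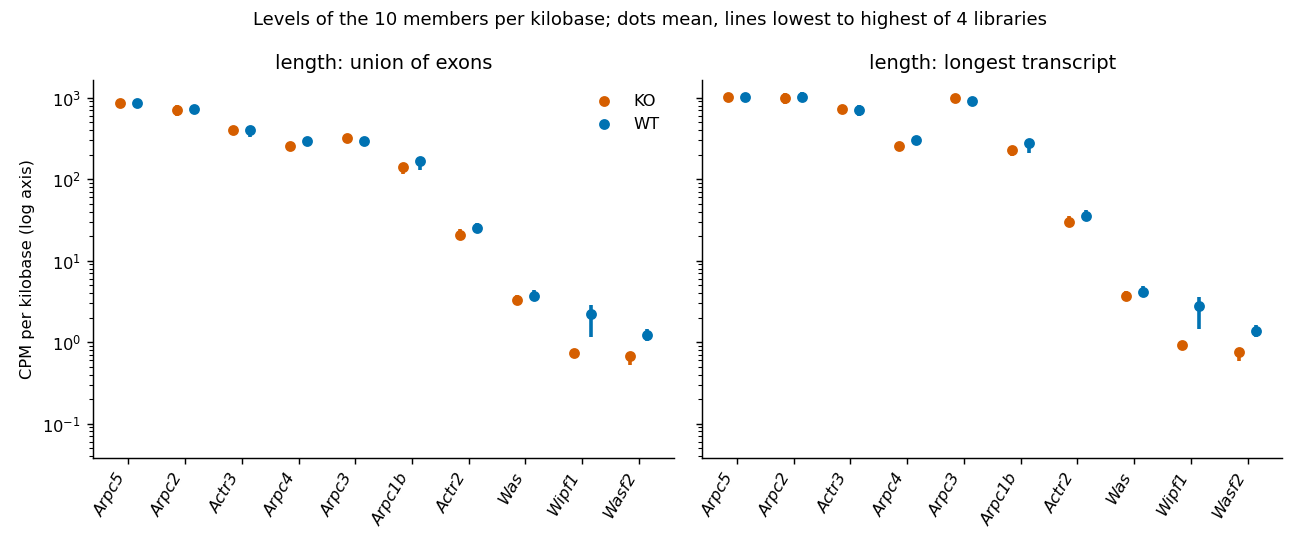
Mean level of each member in CPM per kilobase (log axis), KO left of WT for each gene, with lines from the lowest to the highest of 4 libraries; the left panel divides by the union of exons and the right panel by the longest transcript. The 7 subunits lie between 20.7 and 860 CPM per kilobase in the left panel, and Was, Wipf1 and Wasf2 between 0.67 and 3.71.

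Use of close relatives was compared in the same unit. Arpc1b made up 77.5% ± 0.97 of the Arpc1b and Arpc1a pair in KO and 78.3% ± 3.76 in WT (SD, n = 4 each). Arpc5 made up 96.7% ± 0.29 of its pair with Arpc5l in KO and 96.8% ± 0.23 in WT. Both shares overlapped between genotypes. Actr3b, the relative of Actr3, had 1 to 8 counts per library and was not tested. Wipf1 made up 93.2% ± 0.40 of the pair with Wipf2 in KO and 91.7% ± 2.44 in WT, with overlapping ranges. Was made up 93.2% ± 0.54 of the pair with Wasl, the gene of the widely expressed N-WASP, in KO and 89.9% ± 1.12 in WT. Here the ranges did not overlap, but Wasl had only 24 to 55 counts per library. Wasl was lower in every KO library, with means of 1.47 CPM in KO and 2.58 CPM in WT. Its log2 change was -0.74 ± 0.26 (SE, edgeR adjusted p = 0.136), while that of Was was -0.10 ± 0.17. The higher share in KO thus does not show a rise in Was. How often such shares separate the genotypes among other gene pairs was not counted.

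The other genes of the pathway were read from lists of 85 genes that are not members, of which 76 were tested. In these, 3 genes fell and 0 rose past an adjusted p of 0.05 (edgeR), beside 1.06% of all tested genes in either direction and 0.838% in the lower direction. At an unadjusted p under 0.05, 13 were lower and 2 higher, beside 1342 lower and 1002 higher of all 11222 tested genes. The 15 genes of both directions are near the 20.9% of all tested genes, but that pooled share hides the direction. Every KO library lay below every WT library in CPM for 13 of the 76, beside 8.66% of all tested genes. It lay above for 0, beside 2.81%. The lists were chosen with earlier results of these data known, so nothing is read from these shares. The median log2 change was -0.05, beside -0.004 for all tested genes. DESeq2 called 6 lower and 0 higher. limma-voom called 0, with 13 lower and 3 higher at an unadjusted p under 0.05.

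The 3 genes that fell act as exchange factors or filament assemblers. Tiam1, an exchange factor for Rac, had 0.521, 0.852, 1.14 and 0.874 CPM in KO 1 to 4, against 2.61, 1.99, 3.21 and 4.10 CPM in WT 1 to 4, without overlap (log2 change -1.73 ± 0.33, SE, edgeR adjusted p = 0.0341). Prex1, another Rac exchange factor, which in neutrophils responds to G protein beta-gamma subunits and PIP3, had 2.14, 2.73, 2.98 and 2.26 CPM in KO 1 to 4, against 8.00, 3.78, 8.58 and 8.69 CPM in WT 1 to 4 (log2 change -1.46 ± 0.28, SE, edgeR adjusted p = 0.0350). Diaph2, a formin that builds unbranched filaments, had 2.03, 1.93, 2.18 and 1.98 CPM in KO 1 to 4, against 5.77, 3.57, 6.32 and 5.77 CPM in WT 1 to 4 (log2 change -1.33 ± 0.24, SE, edgeR adjusted p = 0.0341). Tiam1 was low in KO libraries, at 0.521 to 1.14 CPM, where 3 counts correspond to 0.138 to 0.174 CPM. As for Wipf1, WT 2 was the lowest WT library for each of these 3 genes. None of the 3 passed with the length and GC offsets, where their log2 changes were -1.25 ± 0.30, -0.78 ± 0.26 and -1.02 ± 0.20 (SE), nor without KO 1 and KO 2. Leaving out WT 1, WT 3, WT 4, KO 1, KO 2 or KO 3, each in turn, left 0 pathway genes past the threshold, and leaving out WT 2 gave 7.

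Among relatives of the activators (7 listed, 4 tested), 4 of 4 had negative log2 changes and 0 passed (edgeR; 3 lower at an unadjusted p under 0.05, beside 1342 of all 11222 tested genes). A list of 4 genes is too short to read a share from. Wipf2, a WIP relative, had 0.406, 0.398, 0.426 and 0.460 CPM in KO 1 to 4, against 1.14, 0.735, 2.37 and 2.23 CPM in WT 1 to 4 (log2 change -1.86 ± 0.44, SE, edgeR adjusted p = 0.0569). Jmy, another Arp2/3 activator, was at -1.23 ± 0.40 (edgeR adjusted p = 0.115). These genes were near the limit of detection, since 3 counts correspond to 0.138 to 0.174 CPM in KO libraries and 0.157 to 0.186 CPM in WT libraries.

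In the WAVE regulatory complex, which holds WAVE2 inactive until Rac binds, 0 of 7 tested genes passed (edgeR; 0 at an unadjusted p under 0.05, against which the 20.9% of all tested genes stands here and for the next 3 lists). Cyfip1, its Rac-binding subunit, had a log2 change of 0.38 ± 0.19 and Abi3 of -0.36 ± 0.20. In the WASH complex, the endosomal activator of Arp2/3, 0 of 5 passed (edgeR; 1 higher at an unadjusted p under 0.05), with Washc4 at 0.43 ± 0.19 and Washc5 at 0.38 ± 0.19. Of 12 tested adaptors, kinases and BAR proteins 0 passed (edgeR; 1 higher and 1 lower at an unadjusted p under 0.05). The kinase gene Btk was at 0.40 ± 0.18 and the BAR protein gene Fnbp1 at -0.53 ± 0.22. Of 10 tested inhibitors and branch regulators 0 passed (edgeR; 1 lower at an unadjusted p under 0.05). Coro1a, a coronin of blood cells, had 4486, 3325, 3339 and 3364 CPM in KO 1 to 4, against 4751, 5251, 5156 and 4139 CPM in WT 1 to 4 (log2 change -0.33 ± 0.13, SE), with KO 1 inside the WT range. Coro1c was at 0.25 ± 0.15. Of the other Arp2/3 subunit genes, Arpc1a was at -0.10 ± 0.11 and Arpc5l at 0.08 ± 0.11.

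**Figure D4:**
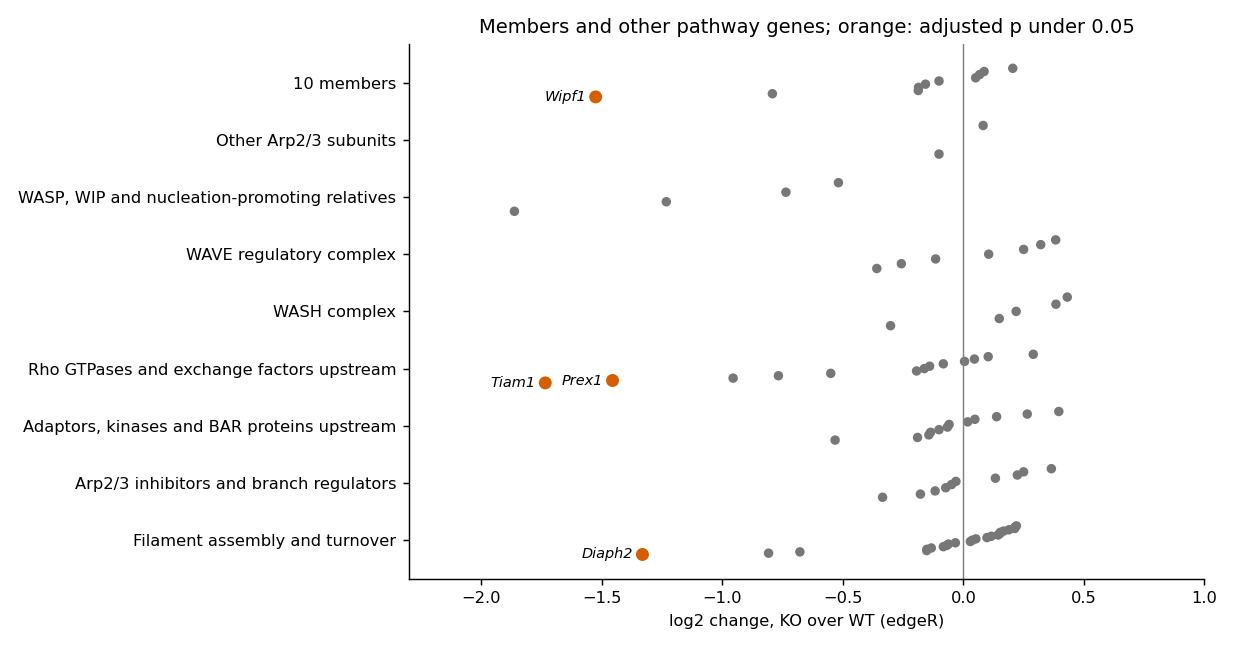
Log2 change of KO over WT (edgeR) for the 10 members and for the 76 tested genes of the other pathway lists, 1 point per gene, offset vertically only to separate points; orange points passed an adjusted p of 0.05. Wipf1, Tiam1, Prex1 and Diaph2 passed, all below 0, while the WAVE, WASH, adaptor and inhibitor lists hold no orange point.

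Profiles most like those of the members were ranked by the root mean square difference of TMM-scaled log2 CPM over the 8 libraries, with a prior count of 2 and each profile centred on its own mean. Wipf1 deviated from its own mean by 0.81 on this measure. Of 5158 genes with at least 10 CPM on average, the closest were Hipk1 (0.187), Mycbp2 (0.19), Rnf213 (0.249) and Tln1 (0.264). In all 4 the KO libraries lay below the WT libraries, beside 8.66% of all tested genes: Mycbp2, for example, was at 4.77 to 6.90 CPM in KO and 7.72 to 23.3 CPM in WT. Because these 4 genes were picked for likeness to Wipf1 over the same libraries, their lower KO levels follow from that choice. Among members the closest to Wipf1 was Wasf2 (0.467), and the others lay between 0.74 and 0.891. Was moved little (0.143 from its own mean) and was closest to Tnfaip8l2 (0.062), Polr1f (0.069), Pde12 (0.078) and Flot1 (0.081). The mean profile of the 7 subunits was nearly flat (0.046 from its own mean) and was closest to Rab2a (0.03), Cnot8 (0.042), Tm9sf3 (0.047) and Ostf1 (0.049).

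**Figure D5:**
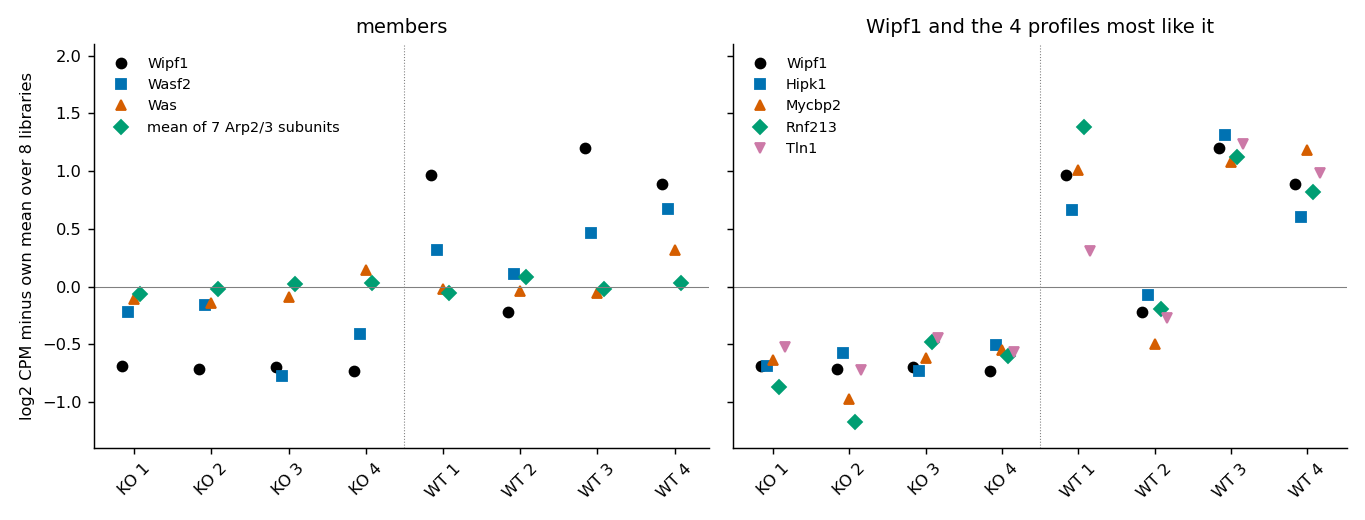
Log2 CPM of each library minus the gene's own mean over 8 libraries, KO libraries left of WT libraries. The left panel shows Wipf1, Wasf2, Was and the mean of the 7 subunits, of which the subunits deviate by 0.046 and Wipf1 by 0.81 (root mean square); the right panel shows Wipf1 with Hipk1, Mycbp2, Rnf213 and Tln1, whose WT 2 values lie below those of the other WT libraries.

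Transcript length set the activators with lower levels apart from the subunits. The longest Wipf1 transcript has 4728 bases and that of Wasf2 5642, longer than 79.1% and 86.7% of tested genes, while that of Was has 2114 (31.1%). The subunits ran from 899 bases for Arpc3 (8.64%) to 3631 for Actr2 (61.8%). The 4 genes closest to Wipf1 had transcripts of 7939 to 16716 bases, longer than 95.5% to 99.8% of tested genes. With per-library offsets for length and GC content the log2 change of Wipf1 was -1.45 ± 0.27 (SE, edgeR adjusted p = 0.0709). With the same offsets Actr2 was at -0.42 ± 0.12, and Actr3, Arpc2 and Arpc5, which were positive without offsets, were negative.

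Sums of some marker lists also separated the genotypes. For the classical monocyte and plasmacytoid dendritic cell lists this rested on 1 gene each. Classical monocyte markers summed to 139597 to 164733 CPM in KO and 122869 to 132064 CPM in WT. Chil3 alone made this gap, at 17615 to 40688 CPM in KO and 7298 to 12990 CPM in WT. Without it the sums overlapped, at 112511 to 127556 CPM in KO and 110591 to 119765 CPM in WT. Lyz2, 80.2% of the sum, overlapped between genotypes, and Fn1 lay the other way, at 41.4 to 71.3 CPM in KO and 86.0 to 153 CPM in WT. Nonclassical monocyte markers (8 of 8 detected, 7 above 3 counts in every library) summed to 162 to 248 CPM in KO and 261 to 356 CPM in WT, without overlap. Of the 8 genes, Itgal and Pou2f2 did not overlap and were lower in every KO library, while the other 6 overlapped. The sums overlapped when Treml4 or Nr4a1 was left out. They stayed apart when Cx3cr1, Itgal, Spn, Pou2f2, Ace or Cd36 was left out, each in turn. Treml4 made up 50.1% of the sum. The separation of this list thus depended on Treml4 and also on Nr4a1, each of which overlapped between genotypes by itself. Plasmacytoid dendritic cell markers (5 of 7 detected) summed to 89.8 to 143 CPM in KO and 202 to 229 CPM in WT, but Bst2, an interferon-induced gene, made up 96.2% of that sum, the sums overlapped without it, and the defining markers Siglech and Klk1 were at 0 in all libraries. Conventional dendritic cell markers (6 of 6 detected) summed to 63.7 to 487 CPM in KO and 191 to 427 CPM in WT, 93.1% of it Cd209a. B cell markers (4 of 5 detected, Pax5 at 0) summed to 16 to 34.1 CPM in KO and 16.3 to 38.1 CPM in WT, 99.1% of it Cd79b. T and NK cell markers (7 of 8 detected, Ncr1 at 0) summed to 2.08 to 3.64 CPM in KO and 1.14 to 2.21 CPM in WT, and erythroid markers (5 of 5 detected) to 5.84 to 25 CPM in KO and 4.14 to 9.84 CPM in WT. Without KO 1 and KO 2, the libraries with the highest neutrophil sums, the log2 change was -1.52 ± 0.35 for Wipf1 (edgeR adjusted p = 0.111) and -0.99 ± 0.26 for Wasf2. The KO libraries kept in this fit still lay above WT in the neutrophil sum without Mmp8, KO 4 only just. The lowest KO sum was 63.5 CPM and the highest WT sum 63.1 CPM. With Mmp8, KO 4 (573 CPM) lay below WT 1 (602 CPM). The part of marker lists and of transcript length in these differences was not tested.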

How the data were processed

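Ly6Chigh monocytes were sorted from spleen, and the SMART-Seq v4 kit (oligo-dT priming, template switching) gave amplified cDNA, per the labels' protocols. Such libraries can recover long transcripts less evenly where RNA is degraded. The authors deposited unnormalized read counts, 1 per gene and library. The submitters' processing notes name HISAT2 2.0.5, featureCounts 1.5.0-p3 and GRCm38. The sources used here do not state annotation release, strand setting or filters.

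Counts were fitted with edgeR 4.0.16 (quasi-likelihood, robust, filterByExpr, TMM) in R 4.3.3, KO against WT over 11222 genes, with Benjamini-Hochberg adjustment at 0.05. CPM divides by total counts. Alternatives used DESeq2 1.42.0, limma 3.58.1, mgcv 1.9.3 for the offsets, other scaling and filters, covariates, and left-out libraries; the overlap counts under TMM or without libraries were added after seeing the data. The fits were tested on simulated data. Lengths and coordinates come from GENCODE M21 (GRCm38) and promoters from RefSeq (GRCm38.p6). Limits at 3 counts cover counting error only.

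The members and lists were chosen with earlier results of these data known. Genes outside the set were named by rule: all pathway genes past 0.05, otherwise the 2 smallest p-values per list, and the 4 closest profiles at 10 CPM or more.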

Additional observations from a re-analysis of the deposited data

Results flagged for a closer look

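In the 4 KO libraries, the ratio of Wipf1 to Was per kilobase was 0.195 in KO 4, apart from the other KO libraries by 0.872 of the group's range, above Dixon's 95% critical value for 4 samples. It was the only such case in 24 groups of 4 values (10 members, the summed subunits and this ratio, by genotype), where chance gives about 1.2. In KO 4 Wipf1 was at 4.37 CPM, within the range of the other KO libraries (4.15 to 4.59). Was stood at 9.07 CPM in KO 4, above the other KO libraries (6.93 to 7.86).

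For Actr3, Arpc2 and Arpc5 both KO libraries lay below both WT libraries in CPM in the 1600 series and above them in the 1700 series. With TMM scaling the genotypes overlapped in the 1600 series for all 3 genes, and for Arpc5 in the 1700 series too. The share of all tested genes with such a crossing was not counted, so nothing is read from it. The fitted interaction, 1700 minus 1600 on the log2 scale, was 0.31 ± 0.18 for Actr3, 0.22 ± 0.20 for Arpc2 and 0.067 ± 0.18 for Arpc5 (SE), and passed for none of the 3 (edgeR adjusted p = 0.434, 0.633 and 0.902).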

How the results depend on the processing

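The count of genes past the threshold, 119, was 742 with no filter on low counts, 784 with DESeq2, 251 with the number series as covariate, 7 without KO 1 and KO 2, 1 with the length and GC offsets and 0 with limma-voom (2352 genes at an unadjusted p under 0.05), and 0 to 515 with 1 library left out. The title numbers did not pair the libraries (correlations of deviations -0.049 to 0.093); with them as a replicate block 244 genes and 1 member passed, 143 genes higher and 101 lower in KO, against 25 and 94 without it. Members past the threshold, 1, became 2 with DESeq2 or no filter, and 0 with limma-voom, the offsets, within the 1600 series and without KO 1 and KO 2, and were 0 to 2 with 1 library left out. Other pathway genes, 3, became 6 with DESeq2 or no filter and 0 with limma-voom, the offsets, within the 1600 series and without KO 1 and KO 2, and were 0 to 7 with 1 library left out. Genes with an interaction, 88, became 645 with no filter and 451 with DESeq2, and members stayed at 0 in these. With TMM scaling 0 members lay above WT in every KO library. Over 18 alternatives Wipf1 was negative in all, from -1.79 to -1.22, and past the threshold in 9, and Wasf2 was negative in all and past it in 3. The cause of these changes was not tested. Low counts of Was, Wipf1 and Wasf2 limit precision.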
